A study of Mus musculus with 11 samples.

Results

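Tumours growing in mice that lack Fpr1 were compared with tumours in wild-type mice 2 days after doxorubicin, across all genes with a named, detected probe on the bead arrays. Fpr1 encodes formyl peptide receptor 1, a G-protein-coupled receptor of neutrophils, monocytes and dendritic cells. It senses formylated peptides from bacteria and mitochondria, and it also binds annexin A1, which dying cells release. Doxorubicin (DX) is an anthracycline that damages DNA, and the cell death it causes can alert the immune system. Dendritic cells, interferons and cytotoxic lymphocytes are the usual players in that response.

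The comparison used 5 of the 11 arrays of the series, chosen by their titles: 2 of Fpr1-/- hosts given DX (KO DX) and 3 of wild-type hosts given DX (WT DX). Of the other arrays, 3 came from Fpr1-/- hosts given PBS (KO PBS) and 3 from wild-type hosts given PBS (WT PBS), and they served as the drug-free counterpart. All hosts were C57BL/6 mice of 10 to 12 weeks with a subcutaneous MCA 205 fibrosarcoma, a transplanted mouse sarcoma line. Each tumour had reached 25 to 45 mm2 when DX was injected into it at 2.9 mg/kg in 50 µL PBS, and it was taken 2 days later. The knockout lay in the host, so the tumour cells themselves were not described as lacking Fpr1. The source names number the tumour line upwards from sample to sample, which was read as 1 line. Nothing in the labels says that replicates came from separate animals, so the p-values measure only the spread between these samples, which may be technical.

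The values are log2 normalized bead signals, and a difference is KO minus WT on that scale, so that 1 unit is a doubling. Between 17861 and 18221 of 45281 probes were detected on the 5 DX arrays, and the number of arrays limits the precision of every value. The matrix genes that a fibrosarcoma makes were among the brightest: Dcn (decorin) stood at 14.41 and 14.44 on the KO DX arrays and between 14.22 and 14.54 on the WT DX arrays. Gene names were at hand only for the 19215 probes of the authors' deposited value table. None of these was named Fpr1, so the genotype labels could not be checked on the deleted gene. The Y-linked gene Eif2s3y stood at 8.53 on WT DX 2 and at 8.52 on WT PBS 3, while the other 9 arrays lay at 4.41 to 4.94, below their lowest detected signals. Xist, the X-inactivation RNA, was present on all 11 arrays (10.84 to 11.68). WT DX 2 therefore stands apart from both other WT DX arrays in this gene. The number of genes past the threshold and the medians of several lists are also given without it. Both KO DX arrays lay on BeadChip 4, which held no WT DX array, so no within-chip value of this comparison exists, and the chip cannot be told apart from the genotype among the DX arrays. In bulk tumours, fewer cells of a type and less RNA per cell cannot be told apart.

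No gene passed the adjusted threshold of 0.05 between KO DX and WT DX in limma, among 10623 tested (0% higher and 0% lower). The smallest adjusted p was 0.0509, shared by Fez1, Tcap and Mylpf. At an unadjusted p under 0.05 stood 712 genes (6.7%), where 531 would be expected without any difference, 317 of them higher (2.98%) and 395 lower (3.72%). The large differences ran towards lower signal in KO DX: 91 genes lay more than 1 below WT DX and 10 more than 1 above, and beyond 2 there were 8 lower genes and 0 higher ones. Leaving out WT DX 2 gave 38 genes past the threshold, leaving out WT PBS 1 gave 7 and leaving out KO PBS 1 gave 1, against 0 with all arrays. The count at an unadjusted p under 0.05 was 162 under median scaling and ranged from 337 to 1201 when 1 array was left out. Skeletal muscle genes made up 10 of the 38.

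Skeletal muscle transcripts formed the clearest group. These genes encode the contractile filaments and the energy enzymes of striated fibres, which lie under the skin and beside a subcutaneous tumour. Of the 34 measured members of the muscle list, 24 had an unadjusted p under 0.05 with lower signal in KO DX (3.72% of all genes did), and 0 passed the adjusted threshold. In 24 the groups did not overlap with KO DX lower (11.7% of all genes), and in 2 with KO DX higher (15.4% of all genes). The list's median difference was -1.22, beside 0.02 over all genes. Leaving out 1 DX array moved that median between -1.55 and -0.98, and over all 28 alternatives it lay between -1.69 and -0.56.

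Tcap, which encodes the titin cap protein of the Z-disc, stood at 6.56 and 6.10 on the KO DX arrays, against 9.03, 7.92 and 9.0 on the WT DX arrays. Both KO values lay below all 3 WT values, as the choice of leading genes required. The difference was -2.32 (SE 0.308, limma adjusted p = 0.0509), and the second probe of Tcap gave -1.25. Mylpf, the fast regulatory myosin light chain, stood at 8.67 and 8.53 in KO DX, against 10.86, 9.98 and 10.81 in WT DX (difference -1.95, SE 0.266, limma adjusted p = 0.0509). The KO DX values lay near those of the drug-free tumours, at 8.79 to 8.97 in KO PBS and 8.80 to 9.43 in WT PBS, so that the WT DX arrays were the high ones. Myl1, the fast essential light chain, differed by -1.77 (limma adjusted p = 0.0643), with 11.24 and 10.56 in KO DX against 13.04, 12.35 and 12.60 in WT DX. Pgam2, the muscle form of a glycolytic mutase, stood at 5.62 and 5.66 in KO DX, against 7.98, 6.88 and 7.55 in WT DX (difference -1.83). WT DX 2 was the lowest WT DX array in each of these 4 genes.

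The troponins lay on the same side. Tnnt3, Tnnc2 and Tnni2, the tropomyosin-binding, calcium-binding and inhibitory subunits of fast fibres, differed by -2.36 (SE 0.392), -2.14 (SE 0.352) and -1.53 (SE 0.268). Acta1, skeletal alpha-actin, differed by -1.79 (SE 0.316), and Pvalb, the calcium buffer parvalbumin of fast fibres, by -2.39 (SE 0.436). Klhl41, an adaptor that stabilises sarcomere proteins, was a leading gene but not a member of the muscle list. It was detected on no KO DX array and was at least 2.41-fold lower there. The limma adjusted p of these 6 genes lay between 0.117 and 0.144. Among other members, Atp2a1 (the calcium pump of fast fibres) stood at -2.07, Mybpc2 (fast myosin-binding protein) at -1.90, Ckm (muscle creatine kinase) at -1.72 and Myf6 (a myogenic transcription factor) at -1.19. The 4 members with a positive difference were Jph1 (a junctophilin that joins membranes in muscle) at 0.50, Tpm1 (a tropomyosin) at 0.15, Eno3 (the muscle enolase) at 0.12 and Myh8 (the perinatal myosin heavy chain) at 0.11.

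**Figure D1:**
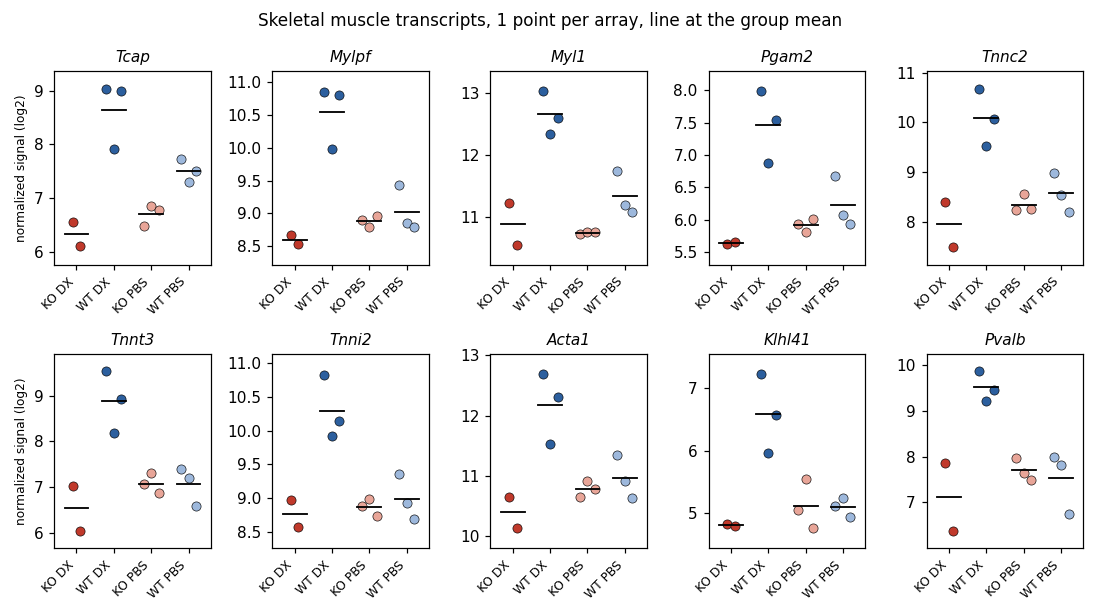
Normalized signal (log2) of 10 skeletal muscle genes on each of the 11 arrays, by group, with a line at the group mean. In all 10 genes both KO DX points lie below the 3 WT DX points, which the choice of leading genes required. The middle WT DX point, replicate 2, is the lowest of its group.

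The same genes showed smaller differences without the drug. The muscle list's median was -0.12 between KO PBS and WT PBS, with 3 members at an unadjusted p under 0.05 and lower (2.87% of all genes in that comparison). These were Tcap at -0.82, Myl1 at -0.60 and Myh1 (a fast myosin heavy chain) at -0.92, so lead genes also differed without the drug. Tcap stood at 6.47 to 6.85 in KO PBS against 7.30 to 7.73 in WT PBS. Myl1 stood at 10.72 to 10.76 in KO PBS against 11.09 to 11.75 in WT PBS. The test of the DX difference against the PBS difference gave 17 of the 34 members an unadjusted p under 0.05 with the lower value after DX, and 0 past the adjusted threshold (4.69% of all genes had such a p in either direction). For Mylpf it gave -1.80 (limma adjusted p = 0.639). Averaged over the list after subtraction of each gene's mean, the arrays stood at -0.23 and -0.63 in KO DX, against 1.16, 0.31 and 0.74 in WT DX, while the 6 PBS arrays lay between -0.37 and 0.10. The summed signal of the list was 24790 and 22780 in KO DX, against 46490, 32240 and 37670 in WT DX. How far muscle tissue in the samples has a part in this difference was not tested.

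The E-box CAGCTG, which myogenic factors are known to bind, was searched in the promoters of the list, and 3 windows that hold it are shown because their genes are among those that lead the list. Windows run from 250 bases before to 50 after the start in RefSeq's GRCm38.p6, read 5′ to 3′ on the gene's strand, with CAGCTG in capitals (the motif is its own reverse complement).
Mylpf (chr7:127211358-127211657, plus strand): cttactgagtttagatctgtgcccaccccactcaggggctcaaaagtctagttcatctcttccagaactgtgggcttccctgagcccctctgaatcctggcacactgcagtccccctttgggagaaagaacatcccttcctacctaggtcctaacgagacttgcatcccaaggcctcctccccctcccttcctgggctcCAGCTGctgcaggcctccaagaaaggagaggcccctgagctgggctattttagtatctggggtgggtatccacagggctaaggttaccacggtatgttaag
Myl1 (chr1:66945007-66945306, minus strand): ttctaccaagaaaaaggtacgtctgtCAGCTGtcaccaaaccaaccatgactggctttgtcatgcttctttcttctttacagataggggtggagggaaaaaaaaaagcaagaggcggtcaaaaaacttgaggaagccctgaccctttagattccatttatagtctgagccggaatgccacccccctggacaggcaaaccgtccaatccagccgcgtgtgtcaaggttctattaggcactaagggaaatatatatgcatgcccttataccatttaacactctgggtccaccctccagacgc
Pgam2 (chr11:5803747-5804046, minus strand): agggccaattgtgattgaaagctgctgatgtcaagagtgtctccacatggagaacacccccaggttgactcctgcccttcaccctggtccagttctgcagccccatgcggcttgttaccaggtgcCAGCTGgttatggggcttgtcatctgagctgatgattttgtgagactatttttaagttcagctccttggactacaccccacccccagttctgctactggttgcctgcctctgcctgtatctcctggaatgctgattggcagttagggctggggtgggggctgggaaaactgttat
Of the 34 measured muscle genes 26 had a window, and 14 of these held CAGCTG (53.8%), while 12 did not, Tnnc2 and Pvalb among them. Over all tested genes with a window the share was 17.7%, and over all 27025 genes of the promoter table it was 18.3%. A match is a string of letters and not a shown binding site.

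Among genes with higher signal in KO DX, Fez1 led. It encodes a kinesin adaptor of transport along microtubules. Fez1 stood at 8.21 and 8.41 in KO DX, against 6.76, 7.19 and 7.08 in WT DX (difference 1.30, SE 0.169, limma adjusted p = 0.0509). The groups did not overlap, as the choice of leading genes required. Its second probe gave 0.84. Without the drug the hosts differed in the same direction, with 8.30 to 8.38 in KO PBS against 7.54 to 7.93 in WT PBS (difference 0.58, limma adjusted p = 0.589).

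Il24, a cytokine of the interleukin-10 family, stood at 6.95 and 6.97 in KO DX, against 6.07, 5.82 and 5.97 in WT DX (difference 1.01, limma adjusted p = 0.165). In PBS it lay at 6.55, 6.64 and 6.26 in KO against 5.0, 5.29 and 5.61 in WT (difference 1.18, limma adjusted p = 0.0604), so the 2 treatments gave differences of similar size in separate arrays. On WT PBS 1 and WT PBS 2 it lay below the lowest detected signals of those arrays, so the size in PBS depends on background. Csta3, a stefin inhibitor of cathepsins, was detected on both KO DX arrays and on no WT DX array, at least 1.37-fold higher. Ptprk (a receptor tyrosine phosphatase) stood at 0.77, Clasp2 (a microtubule-end protein) at 0.85, Mgat5 (a glycan-branching enzyme) at 0.91, Pou5f2 (a POU-domain factor) at 1.15 and Terf1 (a telomere-binding protein) at 0.67. The other genes that led this direction were Zfp52, Gm21992, H2bc8, D930048N14Rik, Tmem164, Bcl7a and Riiad1, and the limma adjusted p of all 15 lay between 0.0509 and 0.394. The second probes of Tmem164 and Zfp52 gave 0.03 and -0.12, against 1.02 and 0.73 on the probes used. The PBS difference was positive in 6 of the 15 and negative in 9, down to -0.58 for Tmem164.

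Outside muscle, Clec2d led the genes with lower signal in KO DX. It encodes a C-type lectin that is a ligand for an inhibitory receptor of natural killer cells. Clec2d stood at 7.22 and 7.21 in KO DX, against 8.59, 8.47 and 8.60 in WT DX (difference -1.34, SE 0.197, limma adjusted p = 0.0643). In PBS the order was the other way, with 8.13, 7.47 and 7.41 in KO against 6.92, 7.05 and 7.02 in WT (difference 0.68). The test of the DX difference against the PBS difference gave -2.01 with the smallest adjusted p of all genes in that test, 0.11 in limma, which did not pass. Rcan2, an inhibitor of calcineurin, was detected on no KO DX array and was at least 1.99-fold lower. Scara5, a ferritin receptor of stromal cells, stood at -1.30 (-0.47 on its second probe, and -0.80 in PBS), and Sis, an intestinal disaccharidase, at -0.84 (-0.58 in PBS).

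Several genes of adventitial and skin fibroblasts lay on the same side. Dpt (dermatopontin, a collagen-binding matrix protein) stood at 7.0 and 6.91 in KO DX, against 8.59, 7.89 and 8.70 in WT DX (difference -1.44, SE 0.290, limma adjusted p = 0.25). Tnxb (tenascin X) stood at -1.14, Dpp4 (a surface peptidase) at -1.10 and Pi16 (a peptidase inhibitor that marks such fibroblasts) at -1.0. Of 22 measured fibroblast genes 6 had an unadjusted p under 0.05 and lower signal (3.72% of all genes), and 0 had one with higher signal (2.98%). Their median was -0.17, and it lay between -0.30 (without WT DX 2) and -0.06 (without WT DX 3) when 1 DX array was left out. The matrix genes as a whole had a median of -0.01, with Bgn (biglycan) at 14.57 and 14.70 in KO DX and 14.43 to 14.72 in WT DX. Among 11 adipocyte genes 2 had such a p with lower signal (3.72% of all genes), Car3 (a carbonic anhydrase, also of muscle) at -1.45 and Adipoq (adiponectin) at -1.12. The adipocyte median was -0.37, and it was -0.63 without KO DX 1, -0.61 without WT DX 2 and -0.17 without KO DX 2.

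Type I interferon genes, which encode antiviral proteins, were lower in KO DX more often than higher, by small amounts. Of 33 measured members 32 had a negative difference, 14 did not overlap between groups with KO DX lower (11.7% of all genes), and 5 had an unadjusted p under 0.05, all lower (3.72% of all genes). The median was -0.24 with none past the adjusted threshold. Ifit1bl1, an interferon-induced tetratricopeptide protein, stood at 8.48 and 8.56 in KO DX, against 9.42, 9.38 and 9.42 in WT DX (difference -0.88, SE 0.201, limma adjusted p = 0.327). Both groups lay above the PBS arrays, at 7.09 to 7.91 in KO PBS and 7.20 to 7.42 in WT PBS. Ifi205, a DNA-binding protein of the interferon-induced p200 family, stood at 9.60 and 9.62 in KO DX, against 10.29, 10.33 and 10.92 in WT DX (difference -0.90).

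Oasl1, an oligoadenylate synthetase-like protein, stood at -0.77, and Isg15, a ubiquitin-like modifier, at -0.48. Zbp1, a sensor of nucleic acids that can trigger necroptosis, stood at 8.75 and 8.99 in KO DX, against 10.45, 9.50 and 10.72 in WT DX (difference -1.35, SE 0.508). Its 2 other probes gave -0.26 and -0.70. In this list WT DX 2 lay close to the rest of its group: the array means over the list were -0.00 and 0.23 in KO DX, against 0.51, 0.41 and 0.44 in WT DX. Without the drug the median was -0.06. The median after DX kept its sign under each alternative tried, between -0.78 and -0.07. Alternatives that only left out PBS arrays or changed the moderation could not move it.

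Windows of 2 interferon genes and of Clec2d are shown with the core of the interferon-stimulated response element, searched as GAAA, any 2 bases and GAAA on either strand, in capitals. They cover the same span around the start in RefSeq's GRCm38.p6, 5′ to 3′ on the gene's strand.
Ifi205 (chr1:174031706-174032005, minus strand): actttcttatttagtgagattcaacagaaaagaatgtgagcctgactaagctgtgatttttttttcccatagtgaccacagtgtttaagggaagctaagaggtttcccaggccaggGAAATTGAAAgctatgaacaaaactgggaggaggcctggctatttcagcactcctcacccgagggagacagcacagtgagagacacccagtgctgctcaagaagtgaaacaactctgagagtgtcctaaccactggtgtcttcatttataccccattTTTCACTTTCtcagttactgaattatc
Ifit1bl1 (chr19:34601919-34602218, minus strand): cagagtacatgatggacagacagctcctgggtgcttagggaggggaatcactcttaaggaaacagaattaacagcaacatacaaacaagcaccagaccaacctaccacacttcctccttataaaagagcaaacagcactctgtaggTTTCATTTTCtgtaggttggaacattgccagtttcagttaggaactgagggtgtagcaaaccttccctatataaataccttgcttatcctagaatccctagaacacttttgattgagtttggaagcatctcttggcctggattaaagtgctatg
Clec2d (chr6:129180365-129180664, plus strand): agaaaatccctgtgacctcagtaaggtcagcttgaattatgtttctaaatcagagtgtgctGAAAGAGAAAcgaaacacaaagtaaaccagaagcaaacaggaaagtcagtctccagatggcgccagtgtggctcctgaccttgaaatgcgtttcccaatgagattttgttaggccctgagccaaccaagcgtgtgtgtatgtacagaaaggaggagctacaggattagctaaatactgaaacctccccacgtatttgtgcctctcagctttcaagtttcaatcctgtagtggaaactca
Of 33 interferon genes 23 had a window, and 15 of these held the motif (65.2%), against 4.06% of all tested genes with a window and 3.99% of the whole table. Clec2d belonged to the natural killer list here and not to the interferon list. Its window was picked by hand after its values were seen, and windows of other leading genes outside muscle are not shown.

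Class I antigen presentation had 18 measured genes, of which 4 had an unadjusted p under 0.05 and lower signal in KO DX (3.72% of all genes) and 0 one with higher signal. The median was -0.22, and it was -0.12 when KO DX 2 and -0.14 when WT DX 3 was left out. Tapbp, the tapasin that loads peptides, stood at 8.44 and 8.50 in KO DX, against 9.49, 8.96 and 9.55 in WT DX (difference -0.87, SE 0.233), and its second probe gave -0.38. Psmb8 and Psme2, parts of the immunoproteasome and its activator, stood at -0.66 and -0.64. The PBS median of the class I list was 0.12. Class II genes (11 measured) had a median of -0.39, which was -0.11 without KO DX 2 and -0.71 without KO DX 1. They had 0 members with such a p, and their groups overlapped, with Cd74, the invariant chain, at 12.50 and 11.87 in KO DX, against 12.97, 12.25 and 12.62 in WT DX.

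Lymphocyte and dendritic cell lists had negative medians in KO DX, but 1 array of each group carried much of their spread. The T cell list (14 measured) had a median of -0.30 and 1 member with an unadjusted p under 0.05 (6.7% of all genes), Cd69 (an early activation antigen) at -0.85. Cd3e, of the T cell receptor complex, stood at 8.02 and 6.98 in KO DX, against 8.58, 6.79 and 8.77 in WT DX. The replicate-2 arrays of both groups were the low ones, and the groups overlapped. Averaged over the T cell list, the arrays stood at 0.06 and -0.49 in KO DX, against 0.42, -0.64 and 0.58 in WT DX. The list's median was -0.71 without WT DX 2 and -0.05 without KO DX 2.

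The natural killer list (11 measured) had a median of -0.61, and 4 members had an unadjusted p under 0.05 with lower signal (3.72% of all genes). These were Clec2d, the receptors Klri2 at -0.73 and Klra3 at -0.89 (-0.41 on its second probe), and Klre1 at -0.72. Clec2d encodes a ligand for a receptor of these cells, so it does not mark the cells themselves. That median was -0.95 without WT DX 2 and -0.26 without WT DX 3. The dendritic cell list (18 measured) had a median of -0.43, which was -0.26 when KO DX 2 and -0.61 when WT DX 2 was left out. It held 4 such members, against 3.72% of all genes: Irf4 (a differentiation factor, at least 1.13-fold lower), Batf3 (needed for cross-presenting dendritic cells) at -0.50, Cd80 (a co-stimulator) at -0.63 and Cd209a (a lectin of monocyte-derived dendritic cells) at -0.95. Itgax, the CD11c integrin, stood at 5.66 and 5.89 in KO DX, against 6.02, 5.20 and 5.48 in WT DX, within the spread. Of the Th1 and cytotoxic list (19 measured) 3 members had such a p with lower signal (3.72% of all genes), among them Stat4 (which relays interleukin-12) at -0.83, and at -0.36 on its second probe. The list's median was -0.21, and leaving out 1 DX array moved it between -0.44 (KO DX 1 left out) and -0.01 (WT DX 3 left out), with -0.07 when WT DX 1 and -0.39 when WT DX 2 was left out. Ifng, the Th1 cytokine, stood at 0.23 with overlapping groups. Neither Cd8a nor Gzmb had a named probe here, so they were not measured.

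**Figure D2:**
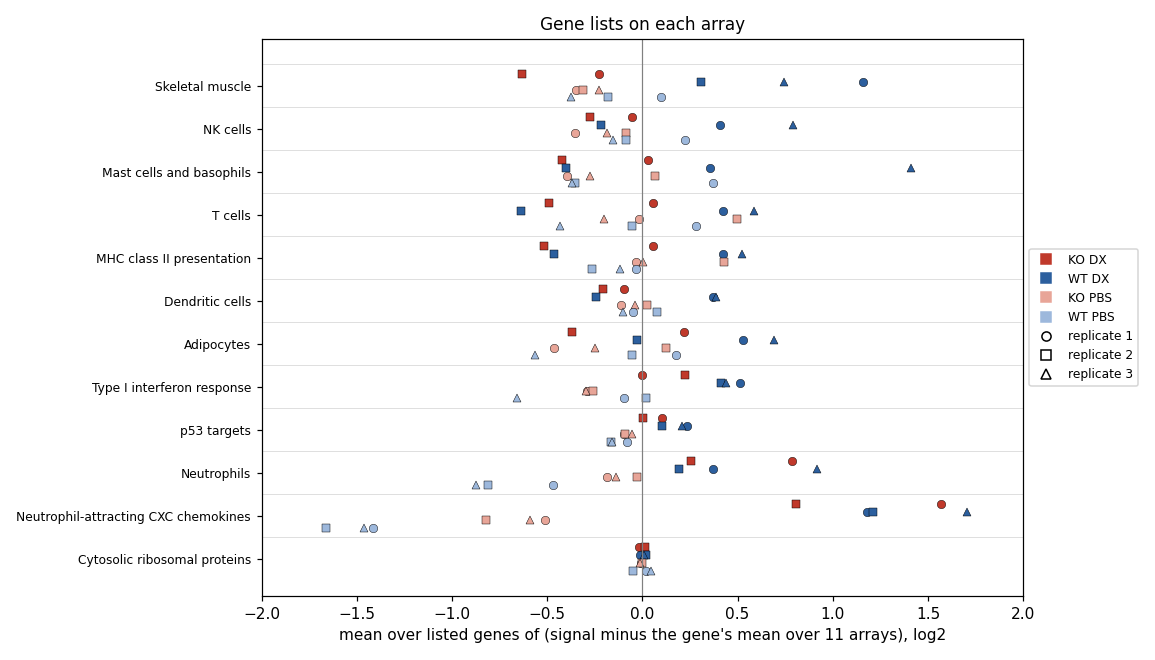
Mean over the genes of each list of the signal minus the gene's mean over 11 arrays (log2), 1 symbol per array, by group (colour) and replicate (shape). The WT DX arrays lie right of the KO DX arrays in the skeletal muscle and interferon lists, whereas in the T cell, class II and natural killer lists WT DX 2 lies beside the KO DX arrays.

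The neutrophil list had a median difference close to 0 after DX and a larger one in PBS. After DX its members ran from -0.70 to 0.64, with 11 positive and 7 negative. The list (18 measured) had a median of 0.07, with 1 member higher and 2 lower at an unadjusted p under 0.05, where 2.98% and 3.72% of all genes did so (8 higher and 0 lower in PBS, where 2.61% of all genes were higher), and the sign of that median turned in 7 of the alternatives. S100a8, a calprotectin subunit, stood at 10.82 and 10.17 in KO DX, against 9.94, 10.06 and 10.72 in WT DX (difference 0.26). In PBS it stood at 9.36, 9.35 and 9.20 in KO, against 7.88, 7.09 and 7.57 in WT (difference 1.79, limma adjusted p = 0.0604). Cxcl1, a chemokine that draws neutrophils, was the 1 gene past the threshold between KO PBS and WT PBS (1 of 10623, 0.00941%), where it was higher in KO by 1.34 (SE 0.155, limma adjusted p = 0.0312). No gene passed in PBS when KO DX 1, KO DX 2, WT DX 1, WT PBS 2 or any 1 of the KO PBS arrays was left out of the fit. After DX it stood at 11.42 and 11.12 in KO against 11.17, 11.45 and 11.24 in WT, a difference of -0.02. The difference between these differences was -1.36 (limma adjusted p = 0.567). S100a9, Cxcl2 and Il1b (interleukin-1 beta) had PBS differences of 1.68, 1.78 and 1.01 and DX differences of 0.06, 0.57 and -0.13. The second probe of Cxcl2 gave -0.03 after DX.

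Ppbp, a chemokine of platelets and myeloid cells, stood at 9.13 and 7.39 in KO DX, against 9.65, 9.38 and 9.78 in WT DX (difference -1.34, SE 0.391, limma adjusted p = 0.515). The KO DX arrays lay further apart from each other in this gene than the group means did. Il1r2, the decoy receptor of interleukin-1, stood at -0.70. Of 27 monocyte and macrophage genes 3 had an unadjusted p under 0.05, all lower (3.72% of all genes): C1qa (complement) at -0.71, Siglec1 (a sialic-acid lectin) at -0.58 and Cd163 (the haemoglobin scavenger receptor) at -1.67. The median of this list was -0.23, and it lay between -0.34 (without KO DX 1 or WT DX 2) and -0.07 (without WT DX 3) when 1 DX array was left out. Cxcl10, Cxcl9, Ccl2 and Ccl5, chemokines of T cells and monocytes, stood at -0.35, -0.29, -0.33 and -0.36, each with a limma adjusted p of 0.815 or more.

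**Figure D3:**
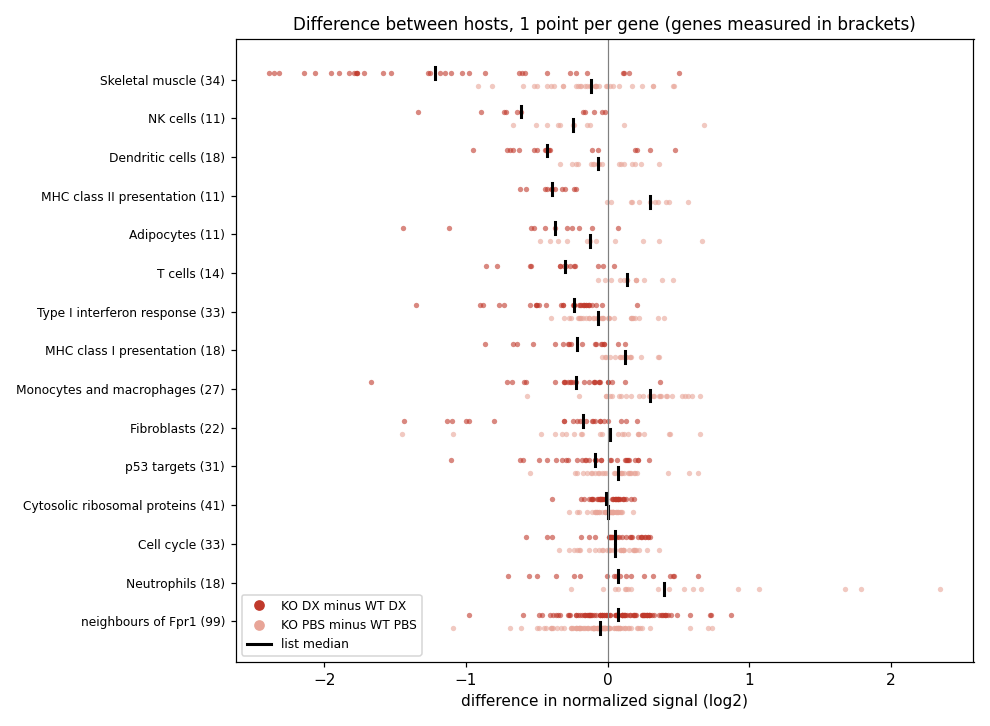
Difference between hosts (log2) for every measured gene of 15 lists, after DX and in PBS, with the list median as a black bar. The muscle list reaches from -2.39 to 0.50 after DX with a median of -1.22, and the neutrophil list lies higher in PBS (median 0.40) than after DX (0.07).

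Targets of p53, which DNA damage activates, were set side by side in both hosts. Cdkn1a, a cyclin-dependent kinase inhibitor that p53 switches on, stood at 11.22 and 10.91 in KO DX, against 11.50, 11.29 and 11.69 in WT DX. These values lay above all PBS arrays, at 9.70 to 10.03 in KO and 9.93 to 10.23 in WT. The difference between hosts after DX was -0.43 (SE 0.178, limma adjusted p = 0.687), and that of Mdm2, which degrades p53, was 0.03. Of 31 p53 targets 4 had an unadjusted p under 0.05, all lower (3.72% of all genes), led by Ephx1 (an epoxide hydrolase) at -1.10. The median of the list was -0.09. It lay between -0.16 (without WT DX 2) and -0.05 (without WT DX 3) when 1 DX array was left out, and it was 0.09 under median scaling, which shifted the median of all genes to 0.20.

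Cell cycle genes (33 measured) had a median of 0.05, cytosolic ribosomal proteins (41 measured) one of -0.01 and respiratory chain genes (43 measured) one of -0.07. The red blood cell list (6 measured) split evenly in sign: the 3 globin genes stood at 0.72 to 0.88 without overlap (15.4% of all genes were higher in KO DX without overlap), and Alas2 (haem synthesis), Bpgm (a red cell mutase) and Car2 (a carbonic anhydrase) stood at -0.08, -0.02 and -0.55. None had an unadjusted p under 0.05. Hbb-bt, a beta globin of red cells whose sequence is nearly that of Hbb-bs, stood at 10.89 and 10.77 in KO DX, against 9.27, 10.48 and 10.10 in WT DX (difference 0.88, SE 0.487, limma adjusted p = 0.808). In PBS its difference was -0.59.

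Tpsab1, a tryptase of mast cells, had the largest difference of all genes in both treatments. It stood at 5.10 and 5.30 in KO DX, against 7.60, 7.84 and 10.35 in WT DX. No KO DX array detected it (at least 9.76-fold lower, a bound that the high value of WT DX 3 raises). The drug-free arrays repeated this, with 4.62, 4.94 and 4.81 in KO PBS against 9.53, 7.70 and 7.88 in WT PBS (at least 7.76-fold lower). The fitted differences were -3.40 (SE 0.723, limma adjusted p = 0.307) and -3.58 (limma adjusted p = 0.206), and every KO array lay below every WT array. Other mast cell genes did not divide the hosts in this way: Mcpt4, a chymase, stood at 6.87 and 6.04 in KO DX, against 6.99, 5.97 and 8.29 in WT DX. Tpsb2, a tryptase of the same family, stood at 6.06 and 4.75 in KO DX, against 5.57, 5.18 and 7.25 in WT DX. The mast cell list (11 measured) had a median of -0.36, which was -1.0 without WT DX 2 and 0.04 without WT DX 3.

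Tpsab1 lies on chromosome 17, as Fpr1 does, and genes close to a deleted locus can carry variants of the donor strain in knockout mice. A set of 99 tested genes around Fpr1 held all 49 on one side of its chromosome and the 50 nearest on the other, by the order of the supplied gene table. Of these 99, 9 had an unadjusted p under 0.05 after DX (9.09%, against 6.7% of all genes) and 8 in PBS (8.08%, against 5.48% of all genes). In both treatments with the same sign it was 4 genes (4.04%, against 0.621% of all genes). These 4, named after their values were seen, were Has1 (a hyaluronan synthase, the nearest measured gene on one side) at -0.98 after DX and -1.09 in PBS, Prss22 (a serine protease) at 0.72 and 0.74, Pde10a (a phosphodiesterase) at 0.87 and 0.58, and Ntn3 (a netrin) at -0.38 and -0.61. Tpsab1 was not among these 99. The set stops at a fixed number of genes, so this does not say how far Tpsab1 lies from Fpr1. Whether strain variants under the probes have a part in any of these differences was not tested.

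The 8 measured genes of the receptor's family and its annexin relatives differed by -0.37 to 0.23. Fpr2, the related receptor that lies next to Fpr1, stood at 10.86 and 10.33 in KO DX, against 10.54, 10.69 and 11.65 in WT DX (difference -0.37, SE 0.311). Anxa1, the annexin that Fpr1 binds, stood at 10.84 and 11.10 in KO DX, against 11.16, 10.94 and 11.34 in WT DX (difference -0.18). Both pairs of groups overlapped, and of the 8 genes 0 had an unadjusted p under 0.05.

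**Figure D4:**
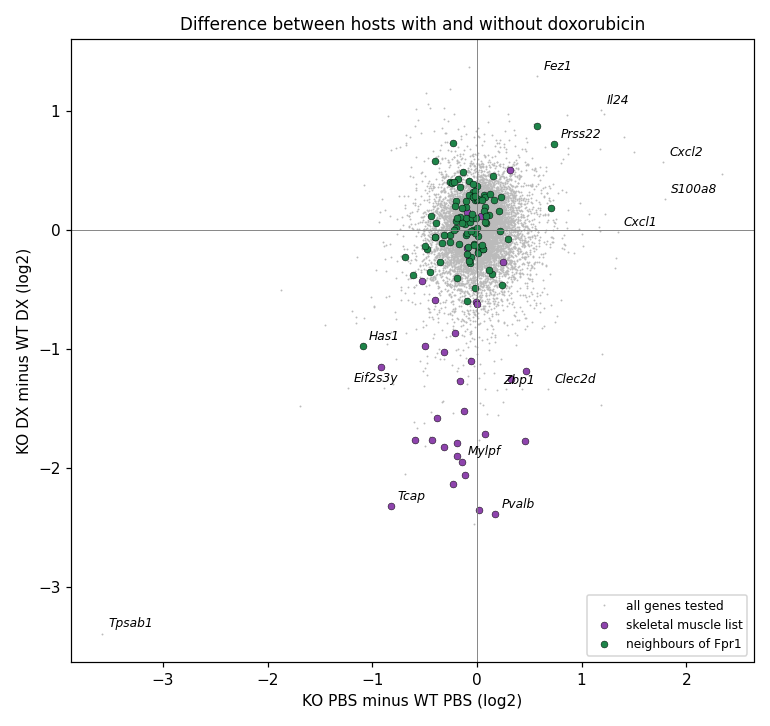
Difference between hosts in DX (vertical) against that in PBS (horizontal), both log2, for 10623 genes, with muscle genes and the neighbours of Fpr1 in colour. Tpsab1 is far down and left (-3.40 and -3.58), most muscle genes are low after DX and near 0 in PBS, and Cxcl1 and S100a8 lie right of 0 with DX differences near 0.

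Over all genes, the differences in DX and in PBS, which share no array, correlated at 0.13 across genes. At an unadjusted p under 0.05 in both stood 66 genes with the same sign (0.621%) and 28 with opposite signs. Genes are not independent replicates, so this is a description.

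Among 4181 detected probes without a single gene name, 6 passed the adjusted threshold (0.144%), 5 higher and 1 lower, and 262 had an unadjusted p under 0.05 (6.27%). The lower one, ILMN_1214408, stood at 9.45 and 9.89 in KO DX, against 11.96, 12.05 and 13.21 in WT DX (difference -2.73, limma adjusted p = 0.00324). In PBS it differed by -2.77 (limma adjusted p = 0.000749), with all KO arrays below all WT arrays. ILMN_1258785 stood at 6.80 and 6.70 in KO DX, against 5.07, 5.34 and 4.70 in WT DX (difference 1.72, limma adjusted p = 0.0102), and at -1.13 in PBS. What these probes measure is not named in the tables used here, which gave names only to probes of the authors' table. Leaving out any 1 array gave between 1 and 6 such calls. There were 0 such calls with the BeadChip as a fixed block, with only the DX arrays in the fit and without the filter on dim probes.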

How the data were processed

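Per the labels, tumour RNA was hybridised to 1-colour mouse bead arrays. The deposited table gives linear bead intensities, not normalized, and a deposited detection p-value per probe and array. The deposited value table of the authors is on a log2 scale and was used as an alternative, and Partek is named in the submitters' processing notes. GEO's platform annotation, which can be old, gave 1 gene symbol to 16496 of that table's 19215 probes, several to 9 and none to 2710.

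From the intensities, limma 3.58.1 (R 4.3.3) removed background estimated from the detection p-values (offset 16), quantile-normalized and took log2. Of 45281 probes, the 20433 that 2 or more arrays detected (p under 0.05) were kept, and the brightest probe stood for each of 10623 genes. One model with 4 group means over 11 arrays (7 residual and 4.04 prior degrees of freedom) gave moderated tests, adjusted by Benjamini-Hochberg. The DX and PBS differences share this variance estimate but no array. A gene detected on no array of 1 group is given as a bound against the lowest detected signals.

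The genes named are the 15 that lead in each direction (by unadjusted p among genes whose groups do not overlap, since none passed), the 4 smallest p of each of 42 lists, and a fixed set with markers and chemokines. Other genes were named after their values were seen. The members and lists were chosen with earlier results of these data known. The fit was tested on simulated data. Alternatives covered background, scaling, filter, probes, BeadChip, weights, replicate numbers, the authors' table and each array left out.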

Additional observations from a re-analysis of the deposited data

How the results depend on the processing

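After DX, the medians of the skeletal muscle, natural killer, dendritic cell, T cell, interferon, class I and class II lists were negative in all 28 alternatives. Those that only left out PBS arrays or changed the moderation cannot move these medians, so they add no support. The numbers of calls moved. Between KO DX and WT DX there were 0, against 10 without background correction, 3 with median scaling, 3 with the stricter detection filter, 3 with detection on at least 2 DX arrays, 136 with array weights, 9 with trend and robust moderation, 35 without both arrays that carry Eif2s3y, and 0 to 38 with 1 array left out. Between KO PBS and WT PBS there was 1, against 3 with median scaling, 4 with trend and robust moderation, 0 with only PBS arrays, 0 without both dim PBS arrays and 0 to 3 with 1 array left out. For the DX against the PBS difference there were 0, against 2 with array weights, 2 with trend and robust moderation and 0 to 1 with 1 array left out. For unnamed probes there were 6, against 2 with median scaling, 0 without a filter, 0 with only DX arrays, 17 with array weights, 13 with trend and robust moderation, 2 without the Eif2s3y arrays and 1 to 6 with 1 array left out. The BeadChip as a fixed block gave 0 calls for DX, PBS and unnamed probes, and as a random block 2 for PBS and 3 for unnamed probes. The fixed block without background correction gave 4 for DX, 7 for PBS, 3 for the difference between them and 0 for unnamed probes. At an unadjusted p under 0.05 stood 712 genes after DX, against 162 with median scaling, 1885 with array weights, 1191 with the fixed block, 1342 with that block and no background correction, 1211 without the Eif2s3y arrays and 337 to 1201 with 1 array left out. The cause of these changes was not tested.

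The authors' table gave 5859 calls for DX, 2523 for PBS, 5846 for the difference between them, 1451 among unnamed probes and 56 among the neighbours of Fpr1, with 6407 genes at an unadjusted p under 0.05. Without its 2 averaged columns these were 4153, 415, 4008, 1014, 42 and 5229. The fit on the authors' table counted 7 residual degrees of freedom, against 3 for the intensities with the BeadChip as a fixed block. Array weights gave 2 calls among the neighbours of Fpr1. In the authors' table the differences of Anxa3 (-0.13), Itga2b (-0.18), Eif2s3y (1.18 with and without the averaged columns) and Uty (0.20) took the opposite sign. The settings without the averaged columns, the Eif2s3y arrays or the dim arrays, and the fixed block without background correction, were chosen after seeing the data.

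The groups share replicate numbers, and whether these pair the arrays could not be decided. Deviations of same-numbered arrays correlated between -0.291 and 0.304 over 15 pairs (median -0.0116). Differently numbered arrays gave -0.304 to 0.272 over 30 pairs (median 0.0368). The 2 same-numbered pairs of DX arrays gave 0.115 and 0.304. The deviations of the KO DX arrays mirror each other, so these pairs are not independent and cannot settle the question. With a replicate block there were 5 calls for DX (Myl1, Mylpf, Pvalb, Qpct and Tcap), 0 for PBS and 2 for unnamed probes.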

Other observations

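A further 5 genes were picked after their values were seen because they were low in KO DX, so they carry no test and say nothing of a cell type as a whole. The fixed monocyte and macrophage list had a median of -0.23, with 5 of 27 members positive and 3 at an unadjusted p under 0.05. Cd209f, a lectin of macrophages, stood at 7.46 and 7.86 in KO DX, against 10.63, 8.45 and 11.33 in WT DX. Fcna, a ficolin that binds microbial sugars, stood at 6.41 and 6.63 in KO DX, against 9.08, 6.93 and 9.0 in WT DX. Cbr2, a carbonyl reductase, stood at 8.87 and 8.29 in KO DX, against 10.58, 8.93 and 10.83 in WT DX. In all 3 genes WT DX 2 lay nearer to KO DX than to the other WT DX arrays. Retnla (a secreted resistin-like protein) and Mgl2 (a galactose-binding lectin) differed by -1.82 and -1.45.

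In the authors' deposited table the columns of WT DX 2 and WT PBS 2 equalled the mean of replicates 1 and 3 of their group for 100% of 19215 probes, within 0.001. Removing a BeadChip effect from log2 quantile-normalized intensities rebuilt 99.8% of that table's values within 0.001, and 0.765% without that removal. WT DX 2 was the only array on BeadChip 3, and BeadChip 4 held WT PBS 2 and both KO DX arrays. A removal that keeps the group means therefore leaves WT DX 2 and WT PBS 2 at the mean of their group. In the authors' deposited table Eif2s3y stood at 8.25 and 8.10 in KO DX, against 7.13, 7.0 and 6.86 in WT DX, whereas the intensities gave signal on WT DX 2 alone among these 5 arrays.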
